A study of Mus musculus with 8 samples.

Results

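Neutrophil-attracting CXC chemokines and a chemokine receptor of neutrophils, 6 genes, were followed through lung RNA from *Wfdc2* +/+ and *Wfdc2* GFP/GFP mice. The ligand genes were *Cxcl1*, *Cxcl2*, *Cxcl3*, *Cxcl5* and *Cxcl15*, and the receptor gene was *Cxcr2*. They were taken by symbol as 6 of the 25965 genes of the deposited expression table, with earlier results of these data known. Values of the comparison of genotypes at postnatal day (P) 1.5 had a part in that choice, so the values of the 6 genes in it are given as a description, without a test.

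CXCR2 is a receptor coupled to G proteins on neutrophils, and its ligands draw these cells from blood into tissue. *Cxcl1* (KC), *Cxcl2* (MIP-2), *Cxcl3* and *Cxcl5* (LIX) are low in resting tissue and are induced by interleukin 1, tumour necrosis factor and bacterial products through the transcription factor NF-kB. *Cxcl15* (lungkine) is different in that healthy lung epithelium makes it constitutively.

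Total RNA of whole lung was sequenced from a late embryonic stage, E18.5, and from P1.5. Each stage had 2 libraries of *Wfdc2* +/+ and 2 of *Wfdc2* GFP/GFP, 8 in all. The mutant allele, made in TT2 embryonic stem cells, holds an IRES-EGFP cassette in place of the first coding sequences of *Wfdc2*, a protease inhibitor of airway epithelium. It is present in every cell, and its drug resistance cassette had been removed with CAG-Cre. The control libraries carry no mutant allele. The labels do not say whether libraries of a group are separate animals or pools, so p-values measure only the spread between these libraries.

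Between 19457647 and 37209332 reads stood behind a library. *Wfdc2* had 8038 to 32845 reads in the *Wfdc2* +/+ libraries and 0 to 12 in the *Wfdc2* GFP/GFP libraries. The summed level of 4 alveolar type II markers ran from 7879 to 64362 in RPM (reads per 1000000 reads of the library), so the defining transcripts of distal lung were present in every library. At E18.5 a single library stood apart. *Wfdc2* GFP/GFP replicate 1 had the 7879 RPM of that range, against 16341 to 21079 in the other libraries of its stage. It held 1571 reads of the club cell gene *Scgb1a1* against 17832 to 29018. Its type II marker *Abca3*, at 439 RPM, lay within the 397 to 503 RPM of the others. Markers outside the epithelium differed too. The monocyte and macrophage sum was 202 RPM against 526 to 774, and the fibroblast sum was 3242 against 2001 to 2576. At P1.5 the *Wfdc2* +/+ libraries differed from each other in the sum of 3 fibroblast markers. It was 522 RPM in replicate 1 and 3267 in replicate 2, against 790 and 1145 in *Wfdc2* GFP/GFP. The difference lay in the collagen genes *Col1a1* (192 and 1433 RPM) and *Col1a2* (250 and 1745 RPM). *Pdgfra* was at 79.6 and 89.5 RPM in *Wfdc2* +/+, against 32.3 and 51.0 RPM in *Wfdc2* GFP/GFP. In every group replicate 1 held the *Xist* reads of a female and replicate 2 the *Ddx3y* reads of a male, so sex and replicate number cannot be told apart.

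All but 1 of the 6 genes lie in one cluster on chromosome 5 (build mm10, all on the + strand), which spans positions 90759299 to 90905909. *Cxcl5* comes first (90759299 to 90761625), followed by the platelet chemokine genes *Ppbp* and *Pf4*. *Cxcl3* (90786103 to 90788086) and *Cxcl15* (90794534 to 90803067) are next, and *Cxcl1* (90891241 to 90893115) and *Cxcl2* (90903899 to 90905909) close the cluster of 7 genes. *Cxcr2* is on chromosome 1, from 74153989 to 74161238. Reads could be shared within a single pair, since *Cxcl2* and *Cxcl3* transcripts share 146 words of 36 bases, the length to which reads had been cut, which is 6.85% of the words of *Cxcl2* and 4.11% of those of *Cxcl3*. No other pair of the 6 shares any. A miRNA gene on the opposite strand overlaps *Cxcl15*.

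The promoters are shown so that the 3 inducible ligand genes with a promoter entry, *Cxcl1*, *Cxcl2* and *Cxcl3*, can be set beside *Cxcl15*, their constitutive neighbour. Each run holds the last 150 bases before the transcription start on the sense strand (RefSeq, GRCm38.p6, chromosome 5), and the capitals mark the longest word that the promoters of *Cxcl1*, *Cxcl2* and *Cxcl3* share.
Cxcl1, chr5:90891095-90891244: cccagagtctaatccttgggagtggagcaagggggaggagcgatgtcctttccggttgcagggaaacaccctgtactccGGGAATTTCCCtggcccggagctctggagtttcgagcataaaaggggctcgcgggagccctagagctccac
Cxcl2, chr5:90903749-90903898: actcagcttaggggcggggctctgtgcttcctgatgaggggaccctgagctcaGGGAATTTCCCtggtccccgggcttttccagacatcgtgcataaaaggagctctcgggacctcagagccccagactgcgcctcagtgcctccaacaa
Cxcl3, chr5:90785951-90786100: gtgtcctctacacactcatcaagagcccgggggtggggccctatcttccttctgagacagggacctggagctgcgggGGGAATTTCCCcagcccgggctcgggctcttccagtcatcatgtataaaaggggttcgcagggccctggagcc
Cxcl15, chr5:90794384-90794533: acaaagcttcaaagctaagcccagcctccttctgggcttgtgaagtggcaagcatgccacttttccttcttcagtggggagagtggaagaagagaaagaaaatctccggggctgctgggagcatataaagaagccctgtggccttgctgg
Promoter entries were matched for 5 of the 6 genes, all but *Cxcl5*. Windows from 250 bases before to 50 bases after the start were searched. The shared word, GGGAATTTCCC, has 11 bases and holds the letters of a classical NF-kB site. It was in 14 of 32851 such windows of all genes (0.0426%, both strands), *Cxcl1*, *Cxcl2* and *Cxcl3* included, and as it was taken from these 3 promoters their holding it is no test. It began 71 bases before the start in *Cxcl1*, 97 in *Cxcl2* and 73 in *Cxcl3*. GENCODE starts *Cxcl2* at 90903871, upstream of the 90903899 used here, so distances in *Cxcl2* depend on the annotation and are shorter with that start. The TATA box letters ATAAAAG were on the sense strand of *Cxcl1*, *Cxcl2* and *Cxcl3* and in 3.38% of all windows. The GC box letters GGGCGG, in 35.7% of windows on both strands, were found in *Cxcl2* alone of the 5. The other TATA spelling TATAAA was on the sense strand of *Cxcl3*, where it overlaps ATAAAAG, and of *Cxcl15*, and in 8.32% of windows. *Cxcr2* held neither TATA spelling, and none of the 5 genes held the AP-1 letters TGANTCA (7.81% of windows) or the C/EBP letters TTGCNNAA (10.8%). These are matches of letters, and binding was not measured.

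The inducible ligands had few reads before birth. In the order replicate 1, replicate 2, *Cxcl2* had 2 and 1 reads at E18.5 in *Wfdc2* +/+ against 2 and 0 in *Wfdc2* GFP/GFP. *Cxcl5* had 3 and 2 reads against 12 and 3, and *Cxcl1* had 20 and 7 against 7 and 11. *Cxcl3* had the most reads in *Wfdc2* +/+, 26 and 20, against 2 and 18. A count of 0 allows up to 3 reads, or 0.0806 to 0.154 RPM by library (counting error only), and *Cxcl2* was under that limit in all 4 libraries before birth.

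At P1.5 the 4 genes together stayed as low in *Wfdc2* +/+, at 1.38 and 0.976 RPM against 1.48 and 0.962 at E18.5, and were at 5.87 and 22.3 RPM in *Wfdc2* GFP/GFP. *Cxcl2* had 8 and 6 reads in *Wfdc2* +/+ against 74 and 266 in *Wfdc2* GFP/GFP, and *Cxcl1* had 12 and 7 against 43 and 219. *Cxcl3* had 3 and 5 against 15 and 76. For these 3 genes the groups did not overlap. *Cxcl5* had 7 and 1 reads against 4 and 91, so that the genotypes overlapped and 1 library carried most of its reads; the single read in *Wfdc2* +/+ replicate 2 is under the limit that a count of 0 allows. Replicate 2 was the higher *Wfdc2* GFP/GFP library for each of the 4.

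**Figure D1:**
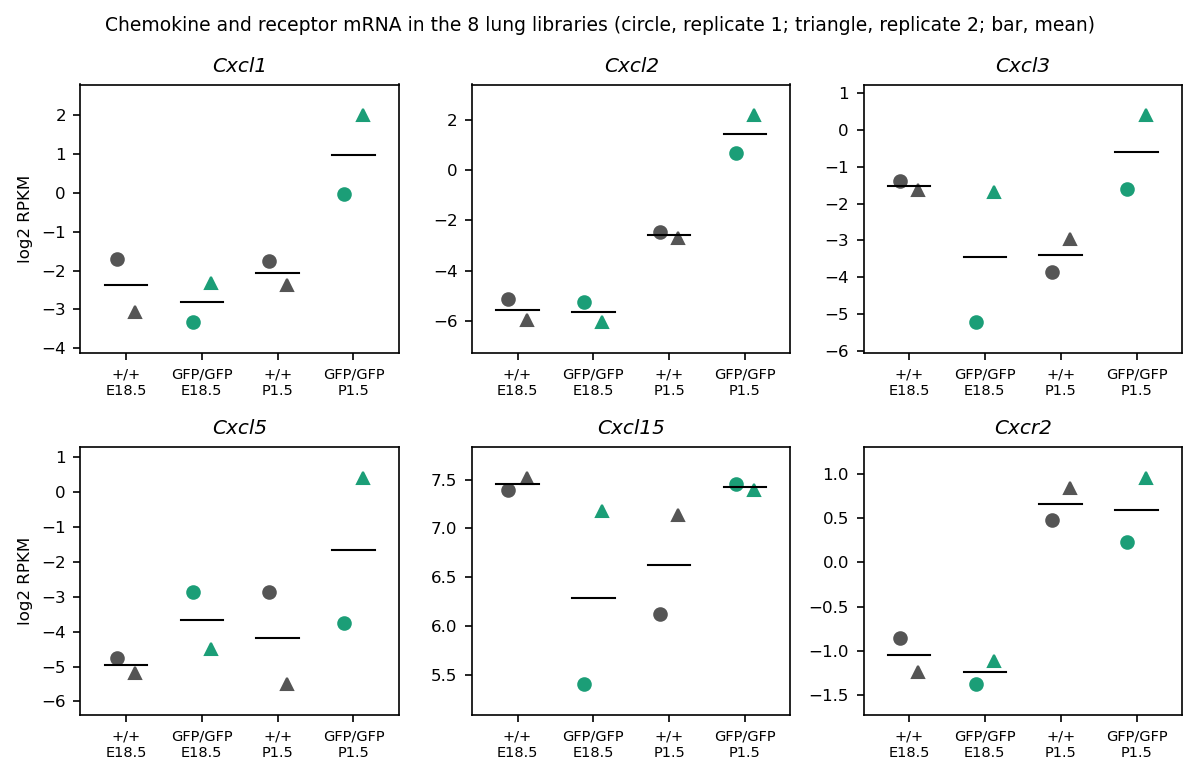
Level of each gene in the 8 libraries, as deposited log2 RPKM (vertical axis, its own range in each panel) by genotype and stage (horizontal axis). Circles are replicate 1, triangles replicate 2, and bars the mean of 2 libraries; a library without reads is drawn at the 0.9 read entered for it. *Cxcl1* and *Cxcl2* are highest in both P1.5 *Wfdc2* GFP/GFP libraries, of which replicate 1 is below 1 E18.5 *Wfdc2* +/+ library for *Cxcl3*, *Cxcr2* is higher at P1.5 in both genotypes, and *Cxcl15* stays between 5 and 8.

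On the scale of mean RPM, *Cxcl2* at P1.5 was 0.338 ± 0.0425 (SD, n = 2) in *Wfdc2* +/+ and 6.14 ± 4.17 in *Wfdc2* GFP/GFP, a ratio of 18.2. *Cxcl1* went from 0.456 ± 0.136 to 4.67 ± 3.98, a ratio of 10.2. *Cxcl3* went from 0.198 ± 0.0840 to 1.62 ± 1.38, a ratio of 8.21, and *Cxcl5* from 0.187 ± 0.192 to 1.64 ± 2.08, a ratio of 8.78 that rests on replicate 2. The *Wfdc2* GFP/GFP libraries differed widely from each other for each of the 4 genes, and for *Cxcl5* the SD exceeded the mean. As differences of mean log2 RPKM, with the standard error of the limma fit, these were 4.0 (0.63) for *Cxcl2*, 3.06 (0.77) for *Cxcl1*, 2.78 (1.11) for *Cxcl3* and 2.51 (1.39) for *Cxcl5*. Without *Wfdc2* GFP/GFP replicate 2 the difference of *Cxcl5* dropped to 0.42, while that of *Cxcl2* was 3.24, of *Cxcl1* 2.06 and of *Cxcl3* 1.78. The 4 genes had a median of 2.92 where all 15627 tested genes had −0.20. Of all tested genes 12.6% had non-overlapping groups with *Wfdc2* GFP/GFP the higher at P1.5, as 4 of the 6 members did, and 0.992% were more than 4-fold higher. Nothing is read from that count, since the members were chosen with this comparison known.

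Before birth no genotype difference passed the test for any of the 6 genes (limma adjusted p = 0.9998 for each; 0.0192% of tested genes passed). The log2 difference was −0.44 for *Cxcl1* (95% interval −2.22 to 1.34), −1.94 for *Cxcl3* (−4.52 to 0.64) and 1.28 for *Cxcl5* (−1.93 to 4.49). These intervals are wide, and changes of several fold either way lie within them. That of *Cxcl2*, −0.09 (−1.54 to 1.37), depends on the value entered for 0 reads. *Cxcl5* was the 1 member whose *Wfdc2* GFP/GFP libraries both exceeded *Wfdc2* +/+ (26.5% of tested genes did), at 15 reads against 5 over pooled libraries. Of the 15 reads 12 were in replicate 1, the library that stood apart. Replicate 2 had 3 reads, the same count as *Wfdc2* +/+ replicate 1. The pooled ratio of RPM was 2.96, with a 95% counting interval of 1.02 to 10.4 that leaves out the spread between libraries. *Cxcl3* and *Cxcl15* were the 2 members with both *Wfdc2* GFP/GFP libraries below (9.46% of tested genes). Without *Wfdc2* GFP/GFP replicate 1 their differences were −0.18 and −0.28. An exact permutation test of 2 against 2 libraries cannot give a two-sided p below 0.333.

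**Figure D2:**
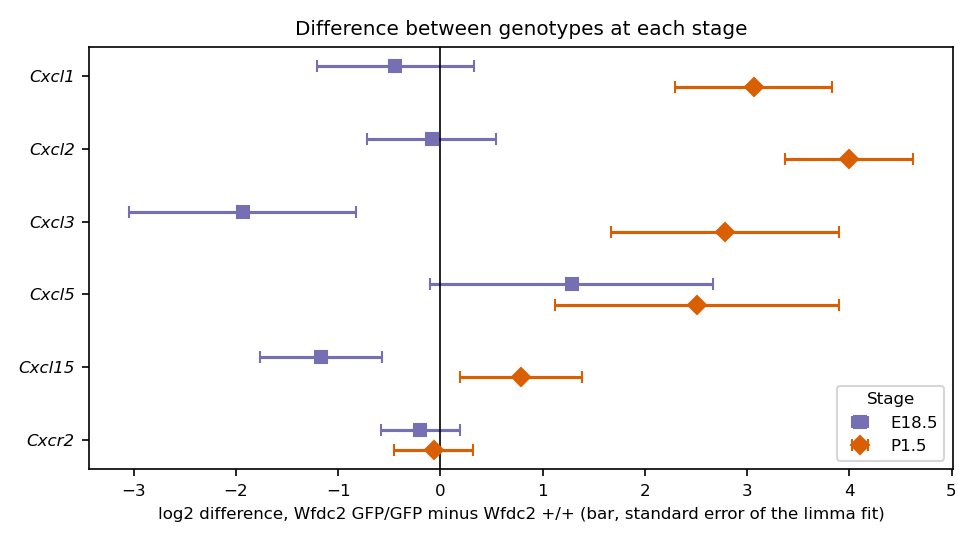
Difference in log2 RPKM between *Wfdc2* GFP/GFP and *Wfdc2* +/+ (horizontal axis) for each gene at E18.5 (squares) and P1.5 (diamonds), with bars of 1 standard error of the limma fit. At P1.5 the 4 inducible ligands lie between 2.51 and 4.0, while *Cxcl15* is at 0.79 and *Cxcr2* at −0.07.

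Across birth in *Wfdc2* +/+ lung, *Cxcl2* had the greatest increase of the 6 genes on the log2 scale, 2.96 (standard error 0.63). Over pooled libraries this was 14 reads against 3, a ratio of 7.44 that rests on few reads. *Cxcl3* was lower after birth in both libraries, with a log2 difference of −1.89, from 46 reads in all to 8. *Cxcl1* and *Cxcl5* overlapped between stages. Of the 6 genes 2 were higher without overlap at P1.5, *Cxcl2* and *Cxcr2*, and 2 lower, *Cxcl3* and *Cxcl15*, where 27.4% of tested genes were higher and 28.2% lower in this way. This comparison shares the P1.5 *Wfdc2* +/+ libraries with the one that had a part in choosing the genes, so the values of the 6 genes in it are a description as well.

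In *Wfdc2* GFP/GFP lung the same interval took *Cxcl2* from 2 reads over both libraries to 340, a ratio of 216. The low count before birth makes the size of that ratio uncertain. At P1.5 replicate 1 held 74 of the *Cxcl2* reads and replicate 2 held 266. *Cxcl1* was 16.6-fold, *Cxcl3* 4.85-fold and *Cxcl5* 7.72-fold higher in mean RPM at P1.5 than at E18.5. On the log2 scale *Cxcl5* was at −0.07 without P1.5 replicate 2, and *Cxcl3* ran from 1.08 to 4.59 with single libraries left out. For 5 of the 6 genes, all but *Cxcl5*, both P1.5 libraries exceeded both E18.5 libraries (18.7% of tested genes did). These values are a description, since the P1.5 *Wfdc2* GFP/GFP libraries had a part in the choice.

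*Cxcl15* stood on another scale of abundance. It had 49492 and 48790 reads in the E18.5 *Wfdc2* +/+ libraries, 13494 and 36053 in E18.5 *Wfdc2* GFP/GFP, 12911 and 23402 in P1.5 *Wfdc2* +/+, and 34604 and 41841 in P1.5 *Wfdc2* GFP/GFP. By reads it ranked between 32 and 341 among all genes, and it took 0.0375% to 0.167% of the reads on genes. In RPM the range was 363 to 1565. The lowest value was in E18.5 *Wfdc2* GFP/GFP replicate 1, and the next lowest, 595, in P1.5 *Wfdc2* +/+ replicate 1. Of the type II markers, *Sftpc* was at 6444 RPM and *Sftpb* at 720 RPM in that E18.5 library, the lowest of their stage, while *Abca3* at 439 and *Lamp3* at 276 RPM were near the 471 and 285 RPM of its mate. In P1.5 *Wfdc2* +/+ replicate 1 the summed type II markers were higher than in its mate, at 54852 against 26428 RPM. The sum of 3 club cell markers was higher too, at 17114 against 8364 RPM. Most of the type II sum was *Sftpc*, at 53718 against 23977 RPM. The other type II markers were lower in replicate 1, *Sftpb* at 585 against 1804, *Abca3* at 315 against 403 and *Lamp3* at 234 against 243 RPM. Of the club cell markers *Cyp2f2* was lower, at 351 against 546 RPM. The part of the markers in the level of *Cxcl15* was not tested, and in bulk RNA fewer cells of a type and less RNA per cell cannot be told apart.

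The genotype difference of *Cxcl15* was −1.17 at E18.5 (standard error 0.60, 95% interval −2.54 to 0.21, limma adjusted p = 0.9998). Without the low *Wfdc2* GFP/GFP library it was −0.28. At P1.5 it was 0.79 (standard error 0.60), a ratio of mean RPM of 1.63, and without *Wfdc2* +/+ replicate 1 it was 0.28. After quantile normalization it was 0.35. Between stages *Cxcl15* differed by −0.83 in *Wfdc2* +/+ and by 1.13 in *Wfdc2* GFP/GFP.

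The balance between constitutive and inducible ligands can be read within a library, where depth cancels. The 4 inducible genes together had 51 and 30 reads in E18.5 *Wfdc2* +/+, 23 and 32 in E18.5 *Wfdc2* GFP/GFP, 30 and 19 in P1.5 *Wfdc2* +/+, and 136 and 652 in P1.5 *Wfdc2* GFP/GFP. For each of their reads there were 587 to 1626 reads of *Cxcl15* at E18.5, 430 and 1232 in P1.5 *Wfdc2* +/+, and 254 and 64.2 in P1.5 *Wfdc2* GFP/GFP. The last 2 were below all the others, and *Cxcl15* remained the most abundant of the 5 ligands in every library.

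**Figure D3:**
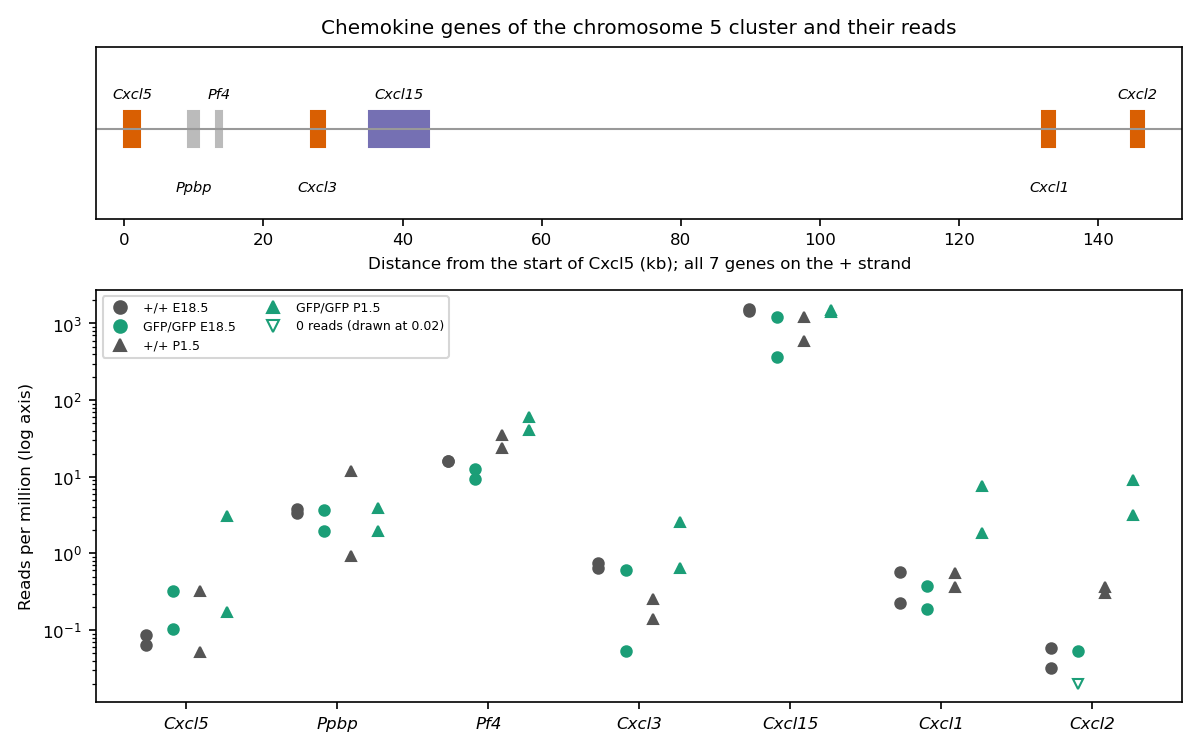
Upper panel, positions of the 7 chemokine genes as distance in kb from the start of *Cxcl5*, to scale, with inducible ligands in orange, *Cxcl15* in purple and platelet chemokines in grey. Lower panel, RPM of each gene in each library on a log axis, by genotype (colour) and stage (shape), with the open triangle for 0 reads; *Cxcl15* lies at 363 to 1565 RPM, between *Cxcl3* and *Cxcl1*, which are under 10 RPM.

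The ranks and ratios by reads given above do not allow for length. *Cxcl15* has 2127 exonic bases, against 953 to 1575 in the inducible ligands. Levels of different genes were therefore also compared per kilobase of exon (RPM divided by the exonic length of the longest coding transcript). In P1.5 *Wfdc2* +/+ lung *Cxcl15* was at 422 ± 202 (SD, n = 2), *Cxcr2* at 3.80 ± 0.679, *Cxcl1* at 0.479 ± 0.143, *Cxcl2* at 0.321 ± 0.0403, *Cxcl3* at 0.196 ± 0.0833 and *Cxcl5* at 0.119 ± 0.122. Only *Cxcl3* and *Cxcl5* overlapped among neighbours in that order. In P1.5 *Wfdc2* GFP/GFP lung the order was *Cxcl15* at 687 ± 21.2, *Cxcl2* at 5.83 ± 3.96, *Cxcl1* at 4.90 ± 4.18, *Cxcr2* at 3.72 ± 1.30, *Cxcl3* at 1.61 ± 1.37 and *Cxcl5* at 1.04 ± 1.32. There *Cxcl2*, *Cxcl1* and *Cxcr2* overlapped with each other, as did *Cxcl3* and *Cxcl5*, and *Cxcl1* overlapped with *Cxcl3* and *Cxcl5* too. At E18.5 the *Wfdc2* +/+ order was *Cxcl15* at 706 ± 42.5, *Cxcr2* at 1.17 ± 0.216, *Cxcl3* at 0.692 ± 0.0795, *Cxcl1* at 0.423 ± 0.264, *Cxcl5* at 0.0480 ± 0.0103 and *Cxcl2* at 0.0428 ± 0.0174, with overlap between the last 2. The means in E18.5 *Wfdc2* GFP/GFP lung had the same order, from 375 ± 289 for *Cxcl15* to 0.0255 ± 0.0361 for *Cxcl2*. In that group *Cxcl3*, *Cxcl1* and *Cxcl5* overlapped with each other.

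The receptor followed stage and not genotype in its values. *Cxcr2* had 138 and 96 reads in E18.5 *Wfdc2* +/+, 104 and 98 in E18.5 *Wfdc2* GFP/GFP, 219 and 253 in P1.5 *Wfdc2* +/+, and 197 and 412 in P1.5 *Wfdc2* GFP/GFP. In RPM every P1.5 library (8.50 to 14.1) exceeded every E18.5 library (2.80 to 4.01), while the genotypes overlapped at both stages. The ratio of mean RPM, P1.5 over E18.5, was 3.26 in *Wfdc2* +/+ and 3.68 in *Wfdc2* GFP/GFP. On the log2 scale the difference in *Wfdc2* +/+ was 1.70 (standard error 0.39). The genotype difference was −0.20 at E18.5 (95% interval −1.09 to 0.69). At P1.5 it was −0.07 (standard error 0.39), and it was 0.14 after centring on the median gene and 0.04 after quantile normalization, so its sign is not settled. *Cxcr1*, a related receptor gene, had 9 reads in 1 library and 0 in the other 7.

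Neutrophil markers were higher after birth together with *Cxcr2*. The 14 markers, *Cxcr2* among them, had a summed level of 65.0 to 106 RPM in the 4 E18.5 libraries, 705 and 1914 RPM in P1.5 *Wfdc2* +/+, and 967 and 1494 RPM in P1.5 *Wfdc2* GFP/GFP. Most of the sum in P1.5 *Wfdc2* +/+ was *S100a8* and *S100a9*, at 771 and 762 RPM in replicate 1 and 184 and 249 RPM in replicate 2. *Itgam* in *Wfdc2* +/+ was at 2.58 and 11.3 RPM at P1.5, on either side of its 5.08 and 5.61 RPM at E18.5. In mean log2 RPKM all 14 were higher at P1.5 in *Wfdc2* +/+, *Itgam* by 0.02, with a median difference of 2.96 against −0.15 over all tested genes. One of them passed the test, as 0.0576% of tested genes did, the granule protein gene *Ngp* (log2 difference 3.19, limma adjusted p = 0.0478, and between 0.0119 and 0.506 over its alternatives). In *Wfdc2* GFP/GFP the means of all 14 were higher as well, with a median of 2.59 against −0.46. There *S100a8*, *S100a9*, *Retnlg*, *Mmp9*, *Camp*, *Ltf* and *Ngp* passed, where 4.55% of tested genes did. *Cxcr2* is left out of those names, since its values in this comparison are a description. Between genotypes at P1.5, 8 of the 14 were higher and 6 lower in *Wfdc2* GFP/GFP, none passed, and the median was 0.24 against −0.20. *Ly6g*, a defining marker, was at 0 to 25 reads and at 0 in 3 libraries. The part of neutrophil number in the level of *Cxcr2* or of the ligands was not tested.

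The rest of the pathway was read from lists of genes grouped by role. No gene of the 6 lists passed the test between genotypes at P1.5, where 0.0128% of tested genes did. Of the other CXC ligands 8 of 10 were tested and 6 were higher in *Wfdc2* GFP/GFP, with a median log2 difference of 0.92 against −0.20 over all tested genes; the study had picked CXC chemokines from this same comparison, so the count is not independent evidence of a direction. *Cxcl10*, an interferon-induced ligand of CXCR3, was at 4.09 (standard error 1.27), *Cxcl13*, which attracts B cells, at 2.57 (1.03), *Cxcl14* at 1.70 (0.53) and *Cxcl12*, the ligand of CXCR4, at 1.05 (0.79), which was −0.40 without *Wfdc2* +/+ replicate 1. *Cxcl10* had 0.432 and 5.74 RPM in *Wfdc2* GFP/GFP and 0 and 0.206 in *Wfdc2* +/+. The platelet genes inside the cluster differed less, *Pf4* by 0.79 (0.34) and *Ppbp* by −0.25 (1.03), and *Ppbp* overlapped between genotypes.

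Among the cytokines and receptors upstream of the inducible ligands, 11 of 13 tested genes were higher, with a median of 1.07. Here too the study had picked cytokines from this comparison, *Il1a* among them. *Csf3*, *Il1a* and *Il6* reached the filter of 0.05 RPKM only through the P1.5 *Wfdc2* GFP/GFP libraries. Their mean log2 RPKM in the other groups was −7.99 to −4.54. The count and the median therefore lean upward and are a description. *Csf3*, the growth factor of the neutrophil lineage, was at 3.34 (standard error 1.46) and *Il1a* at 3.22 (1.24). With single libraries left out, *Csf3* ran from 0.90 to 5.78 and *Il1a* from 1.33 to 5.10. *Il1a* had 0 and 0.565 RPM in *Wfdc2* +/+ and 0.734 and 2.77 RPM in *Wfdc2* GFP/GFP, so its difference depends on the value entered for 0 reads. *Csf3* had 2.53 RPM in *Wfdc2* GFP/GFP replicate 2 and at most 0.137 RPM in any other library. For NF-kB subunits and feedback genes 9 of 11 were higher with a median of 0.22. The largest differences were those of the subunit gene *Relb* at 1.21 (0.37) and of *Bcl3* at 1.02 (0.59), which was 0.23 without *Wfdc2* GFP/GFP replicate 2. *Relb* was at 39.6 and 42.5 RPM in *Wfdc2* GFP/GFP and at 18.51 and 17.0 RPM in *Wfdc2* +/+.

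Genes of signalling below CXCR2 were nearer to the median of all genes, with 10 of 15 higher and a median of 0.16. The kinase gene *Fgr* was at 0.61 (0.83) and *Pik3r5* at 0.52 (0.66), and both turned below 0 when 1 library was left out. Other pathways that attract neutrophils had 6 of 8 genes higher and a median of 0.69, with the leukotriene B4 receptor gene *Ltb4r1* at 1.12 (0.50) and the formyl peptide receptor gene *Fpr1* at −1.74 (0.40). Of the other CXC and atypical receptors 5 of 9 were tested, 1 of them higher, with a median of −0.57. That was *Cxcr7*, a scavenger of CXCL12, at 0.93 (0.41), and the lowest was the atypical receptor gene *Ccbp2* at −1.20 (0.71).

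**Figure D4:**
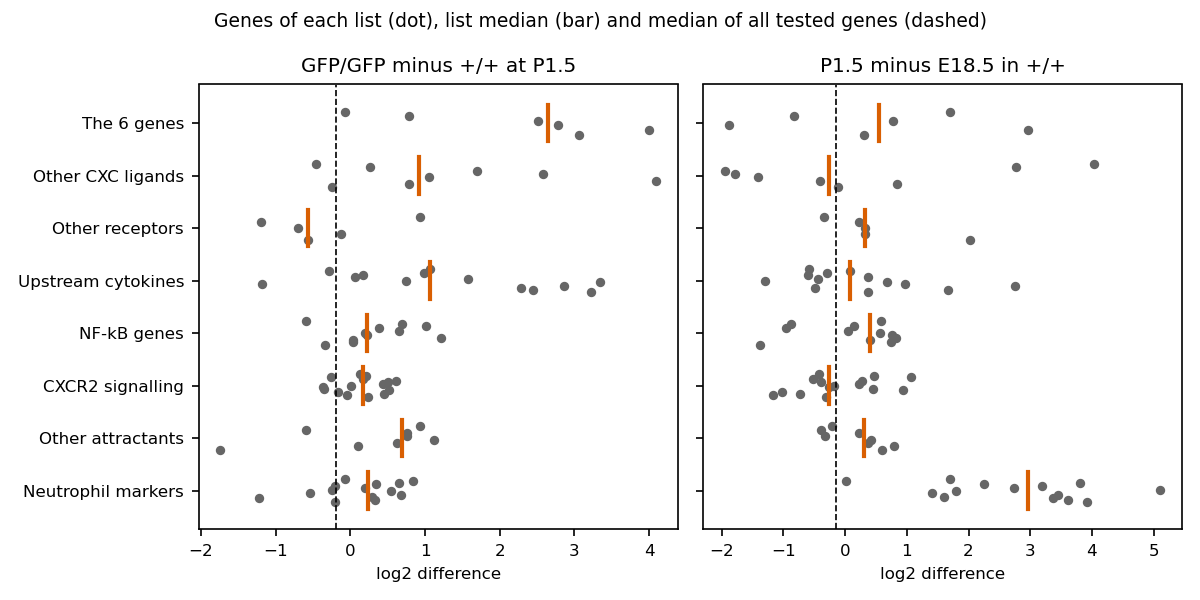
Log2 difference (horizontal axis) of each tested gene (dot) by list, between genotypes at P1.5 (left) and between stages in *Wfdc2* +/+ (right), with the median of each list as a bar and that of all tested genes as a dashed line. On the left the 6 genes have a median of 2.65 and the neutrophil markers 0.24, and on the right the neutrophil markers have a median of 2.96.

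Across birth in *Wfdc2* GFP/GFP lung, where 4.55% of tested genes passed, 5 genes of the pathway lists did so, each higher at P1.5. They were *Pf4* (log2 difference 2.19, limma adjusted p = 0.0320), *Cxcl16* (3.14, limma adjusted p = 0.0390), *Cxcl17* (4.43, limma adjusted p = 0.0490), *Il1b* (6.88, limma adjusted p = 0.0390) and *Relb* (2.11, limma adjusted p = 0.0390). *Cxcl16* and *Cxcl17* are ligands made by epithelium and other cells at mucosal surfaces. In *Wfdc2* +/+ lung they were at 2.77 and 4.04, and a genotype by stage difference was not shown for either. With the replicate number as a block *Il1b* alone passed (limma adjusted p = 0.0286), and the others were between 0.0513 and 0.0693. Each of the 5 passed without E18.5 *Wfdc2* GFP/GFP replicate 2, and none passed when any other *Wfdc2* GFP/GFP library was left out. With no filter on low values, or with voom on recovered reads, *Pf4* and *Relb* passed and the other 3 did not.

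Over the 8 libraries the genes most like the mean of the 4 inducible ligands by Pearson's r on log2 RPKM were *Il10* (0.975), *Snx11* (0.971), *Serpina3g* (0.970), *Timm8a1* (0.970) and *Gm15832* (0.969). *Il10* had 27 and 185 reads in P1.5 *Wfdc2* GFP/GFP and 0 to 3 in the other 6 libraries. *Serpina3g* had 1195 and 4638 reads against 71 to 155. The genes most like *Cxcl15* were *Pard6b* (0.976), *Lgals3bp* (0.970), *Zbp1* (0.962), *Tubb4b* (0.959) and *Kcnab2* (0.959), and none of the first 5 names recurred in the second 5. The libraries share groups, depth and cell makeup, so these values describe likeness of pattern only.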

How the data were processed

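Whole lung RNA was converted to directional libraries (NEBNext Ultra Directional kit) and sequenced on a HiSeq2500 or GAIIx, and which library ran on which is not given in the sources used here. The authors cut reads to 36 bases, trimmed them with Trim Galore 0.4.0, aligned them to mm10 with TopHat2 2.1.1 and counted them in SeqMonk. Values were deposited as log2 RPKM, where a kilobase is of the whole gene span and a gene without reads was entered at 0.9 read. From these values whole reads were recovered: 99.86% to 99.97% of values lay within 0.02 of a whole number. RPM and exonic levels were computed from them, with GENCODE exons.

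Samples were grouped by the labels' genotype and stage. Genes averaging 0.05 RPKM or more over all 8 libraries (15627 of 25965, all 6 members included, also without P1.5 *Wfdc2* GFP/GFP) were fitted in limma 3.58.1 (R 4.3.3) on log2 RPKM with 1 mean per group, a trend prior and Benjamini-Hochberg adjustment over all tested genes (threshold 0.05, two-sided). The fit was tested on simulated data. Named genes were the 6 members, the genes of largest P1.5 difference in each list and any that passed, the 5 most alike by r, and the cluster's genes. Comparisons that hold P1.5 libraries are given without a test for the members. The members and lists were chosen with earlier results of these data known. Alternatives were other pseudocounts (0.1, 1), filters (none, 0.5 RPKM), median centring, quantile normalization, a replicate block, no trend, voom on recovered reads, single stages, and leaving out each library.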

Additional observations from a re-analysis of the deposited data

Results flagged for a closer look

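The values of *Cxcl3* and *Cxcl15* lay in opposite directions between genotypes at the 2 stages: both *Wfdc2* GFP/GFP libraries were below both *Wfdc2* +/+ libraries at E18.5 and above them at P1.5. Neither gene passed the test at E18.5 (limma adjusted p = 0.9998 for each). The difference of the log2 differences was 4.72 for *Cxcl3* (−1.94 at E18.5, 2.78 at P1.5) and 1.96 for *Cxcl15* (−1.17 and 0.79), and it was not tested, since both genes were chosen with the P1.5 values known. E18.5 *Wfdc2* GFP/GFP replicate 1, the library that stood apart, had 2 reads of *Cxcl3* against 18 in its mate. Without that library the difference of the log2 differences was 2.96 for *Cxcl3* and 1.07 for *Cxcl15*. The E18.5 differences alone were then −0.18 and −0.28, so the size of the E18.5 part rests largely on 1 library.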

How the results depend on the processing

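At P1.5 the 4 inducible ligands had higher *Wfdc2* GFP/GFP means under each alternative run, the ones that leave out a library included. Their median difference of 2.92 became 1.01 with a pseudocount of 1 RPKM, which shrinks low genes, and ran from 1.92 to 4.33 with single libraries left out (−0.82 to 0.29 at E18.5). *Cxcl3* and *Cxcl5* fell under the 0.5 RPKM filter. No member passed at E18.5 under any alternative.

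Counts of genes that passed were 3 for genotype at E18.5, 2 for genotype at P1.5, 9 for stage in *Wfdc2* +/+ and 711 for stage in *Wfdc2* GFP/GFP. In that order they were 6, 11 and 16 with a pseudocount of 0.1 (the first 3), and with a pseudocount of 1 they were 5, 17 and 237 (the last 3). They were 22, 21, 35 and 349 with no filter, and at 0.5 RPKM 1 at E18.5 and 52 for stage in *Wfdc2* +/+. They were 0, 0, 5 and 1279 after median centring and 0, 0 and 49 after quantile normalization. Without a trend they were 8 and 5 for genotype, and with voom 0, 0, 0 and 129. Within 1 stage alone they were 1 and 0. Where the limma count between genotypes fell to 0, 676 (E18.5) and 2069 (P1.5) genes had an unadjusted p under 0.05 after centring. For the difference of genotype differences no gene passed in limma or voom, with 1599 and 1639 at an unadjusted p under 0.05.

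Leaving out single libraries gave 0 to 1, 1 to 24, 0 to 2166 and 0 to 2449 genes, and 0 to 2 for the difference of genotype differences. At E18.5 *Cxcl1* ran from −1.13 to 0.24 and *Cxcl2* from −0.51 to 0.34. For stage in *Wfdc2* +/+, *Cxcl1* ran from −0.38 to 0.99 and *Cxcl5* from −0.54 to 2.11, and in *Wfdc2* GFP/GFP *Cxcl5* from −0.07 to 4.10. At P1.5 *Cxcl12* ran from −0.40 to 2.50, *Bcl3* from 0.23 to 1.81, *Fgr* from −0.29 to 1.5 and *Pik3r5* from −0.27 to 1.32. Each of these directions, except that of *Bcl3*, turned when 1 library was left out.

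Libraries with the same number were correlated across genes in their deviations at r = 0.23 (E18.5) and 0.21 (P1.5), and at −0.02 and −0.01 across stages. The labels do not say that a number marks a litter or batch. With the replicate block the counts were 1, 9, 0 and 125, no member with a test changed its call, and the 4 pathway genes other than *Il1b* lost theirs across birth in *Wfdc2* GFP/GFP.

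Depth limited the inducible ligands before birth, where *Cxcl2* had at most 2 reads in a library.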
